A study of Mus musculus with 14 samples.

Results

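The regions described here carry H3K9me2, dimethylation of lysine 9 on histone H3, and lie where H3K27me3 was also listed but G9a, an enzyme that places H3K9me2, was not. They were chosen from the authors' deposited tables of differing regions: an H3K9me2 region on chromosomes 1 to 19 was taken where it overlapped at least 1 bp of an H3K27me3 region and no G9a region. This gave 78130 of 243842 H3K9me2 regions on those chromosomes (32.0%), among 1186058 regions in the 3 tables. The other H3K9me2 regions overlapped both H3K27me3 and G9a (49220), G9a alone (26981) or neither (89511). Throughout, with or without G9a or H3K27me3 refers to overlap with these listed, differing regions. G9a or a mark present alike in both conditions would not be listed, so its absence from a region is not shown.

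The series profiled chromatin by ChIP-seq in cells enriched for cardiomyocytes, taken from C57BL/6J mice. One group had undergone transverse aortic constriction (TAC), a narrowing of the aorta that loads the left ventricle with pressure, 1 week earlier. The other consisted of sham hearts, whose treatment label reads as untreated. Each of the 3 antibodies was used on 2 biological replicates per condition, and with 1 input library per condition this made 14 libraries. Sex, age and the number of animals behind a library are not given in the labels.

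Each line of a deposited table holds 4 whole numbers, read here as a first pair and a second pair of libraries. The tables do not name the pair that came from constricted hearts, so every difference is given as the second pair over the first, on a log2 scale of the pair means with a pseudocount of 1. If the pairs were read the other way round, each direction would turn round with them. The regions were listed because they differed, and the overlap rule used the same contrast, so their values are a description, with no test. In bulk chromatin, fewer cells with a mark and less mark per cell cannot be told apart.

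G9a, encoded by Ehmt2, forms a complex with its relative GLP and places most of the H3K9me1 and H3K9me2 of euchromatin. H3K27me3 is placed by Polycomb repressive complex 2, with Ezh2 or Ezh1 as its catalytic subunit, and is known for keeping developmental genes silent in differentiated cells such as cardiomyocytes. Both marks are repressive, and G9a and Polycomb proteins have been found in contact with each other in mouse cells.

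Sequences of the regions are shown where a promoter lay wholly inside one. Of 20078 RefSeq promoters on these chromosomes, each from 250 bases before to 50 after a gene start in assembly GRCm38.p6, 128 promoters of 127 genes were covered whole (0.638%). The 4 below show each combination of directions once. Kcnip1 has both marks higher in the second pair and Olfr525 H3K9me2 in the second and H3K27me3 in the first. Nalcn has H3K9me2 higher in the first and H3K27me3 in the second, and Defb46 both in the first. Capitals mark CpG dinucleotides. Olfr525 and Nalcn were chosen after their values were seen.
Kcnip1, chr11:33680633-33680932, minus strand: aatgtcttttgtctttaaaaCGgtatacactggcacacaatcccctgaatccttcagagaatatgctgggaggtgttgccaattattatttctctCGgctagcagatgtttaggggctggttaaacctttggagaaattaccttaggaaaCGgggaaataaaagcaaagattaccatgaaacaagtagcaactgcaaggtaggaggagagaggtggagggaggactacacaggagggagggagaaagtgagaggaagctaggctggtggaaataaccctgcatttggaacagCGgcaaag
Olfr525, chr7:140322451-140322750, plus strand: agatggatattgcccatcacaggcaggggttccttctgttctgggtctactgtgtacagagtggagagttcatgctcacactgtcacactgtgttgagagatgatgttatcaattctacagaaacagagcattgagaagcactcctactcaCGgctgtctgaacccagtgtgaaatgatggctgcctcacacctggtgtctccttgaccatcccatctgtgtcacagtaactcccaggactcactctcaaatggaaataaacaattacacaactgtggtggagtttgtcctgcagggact
Nalcn, chr14:123627095-123627394, minus strand: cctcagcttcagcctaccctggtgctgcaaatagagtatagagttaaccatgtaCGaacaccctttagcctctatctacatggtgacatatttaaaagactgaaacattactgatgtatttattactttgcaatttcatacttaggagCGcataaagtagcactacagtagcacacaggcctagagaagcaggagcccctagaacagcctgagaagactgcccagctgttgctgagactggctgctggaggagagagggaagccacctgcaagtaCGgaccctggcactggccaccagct
Defb46, chr8:19239666-19239965, plus strand: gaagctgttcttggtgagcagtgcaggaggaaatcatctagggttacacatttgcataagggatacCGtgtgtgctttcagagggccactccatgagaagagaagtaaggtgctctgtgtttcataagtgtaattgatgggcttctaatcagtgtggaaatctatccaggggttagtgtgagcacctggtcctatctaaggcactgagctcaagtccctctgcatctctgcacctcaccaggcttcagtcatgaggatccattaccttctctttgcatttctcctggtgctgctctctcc

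These promoters are poor in CpG. Kcnip1, which encodes a partner protein of voltage-gated potassium channels, has 4 CpG in its 300 bases and a GC share of 45.3%. Nalcn, a sodium leak channel gene, has 3 and 48.3%, while the odorant receptor gene Olfr525 (47.7%) and the beta-defensin gene Defb46 (48.3%) have 1 each. Over the 128 covered promoters the median GC share was 48.8% and the median ratio of observed to expected CpG 0.18, against 57.0% and 0.59 in all 20078. A GC share of at least 50% with a CpG ratio of at least 0.6 was found in 13.3% of covered promoters and in 46.5% of all. The 186 promoters covered by H3K9me2 regions with both H3K27me3 and G9a lay between, with a median GC share of 54.7% and a CpG ratio of 0.31. The 38 covered by regions with G9a alone had 48.5% and 0.20, and the 86 with neither 44.7% and 0.15. Few CpG are thus not particular to the regions described here.

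5 short motifs were searched on both strands of these promoters. TATAAA was found in 21.1% of covered promoters and in 12.7% of all, and TGACTCA, the AP-1 motif, in 4.69% and 4.70%. GCCATNTT, the YY1 motif, was found in 2.34% and 6.36%, CACGTG in 3.91% and 7.89%, and AGATAA in 9.38% and 9.57%. In promoters covered by the other H3K9me2 regions TATAAA was found in 16.7% with both, 15.8% with G9a alone and 29.1% with neither. None of these motifs occurred in the 4 promoters above. These shares are a description of 300-base windows and say nothing about binding.

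At Kcnip1 the authors' deposited table gave 209 and 330 for H3K9me2 in the second pair and 89 and 36 in the first, in the region chr11:33680501-33681500. The H3K27me3 region over it had 4047 and 2958 in the second pair and 1710 and 1919 in the first in the authors' deposited table. Both second-pair libraries were above both first-pair libraries for each mark. At Nalcn (chr14:123626501-123627550) H3K9me2 had 63 and 50 in the second pair and 152 and 369 in the first in the authors' deposited table. Its H3K27me3 had 1262 and 789 in the second pair and 441 and 818 in the first in the authors' deposited table, so the H3K9me2 pairs did not overlap and the H3K27me3 pairs did. At Olfr525 (chr7:140321451-140322800) the authors' deposited table gave H3K9me2 of 242 and 399 in the second pair and 154 and 73 in the first. Its H3K27me3 there had 118 and 105 in the second pair and 469 and 215 in the first in the authors' deposited table, and covered 7.41% of the H3K9me2 region. At Defb46 (chr8:19239551-19240850) the authors' deposited table gave 100 and 89 for H3K9me2 in the second pair and 213 and 246 in the first. H3K27me3 had 110 and 128 in the second pair and 287 and 371 in the first in the authors' deposited table, separated in the same direction.

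MicroRNA genes were a second place where a whole annotated sequence fell inside these regions. Of 919 RefSeq hairpins on these chromosomes, 14 lay wholly within them, against 14 within regions with both H3K27me3 and G9a, 5 with G9a alone and 8 with neither. 5 of the 14 (Mir300, Mir541, Mir369, Mir409 and Mir412) belong to the large microRNA cluster of the imprinted Dlk1-Dio3 domain on chromosome 12, which is expressed from the maternal allele. The mature forms below are shown for those 5 hairpins, for Mir9-1 and for Mir204, from RefSeq in assembly GRCm38.p6, with the seed (bases 2 to 8) in capitals.
mmu-miR-300-3p, chr12:109724363-109724384, plus strand: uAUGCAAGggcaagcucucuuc
mmu-miR-541-5p, chr12:109742422-109742446, plus strand: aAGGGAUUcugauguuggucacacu
mmu-miR-369-3p, chr12:109743466-109743486, plus strand: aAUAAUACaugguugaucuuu
mmu-miR-409-3p, chr12:109743204-109743225, plus strand: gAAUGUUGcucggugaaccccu
mmu-miR-412-5p, chr12:109743303-109743325, plus strand: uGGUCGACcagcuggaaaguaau
mmu-miR-9-5p, chr3:88215613-88215635, plus strand: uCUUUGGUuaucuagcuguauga
mmu-miR-204-5p, chr19:22750610-22750631, plus strand: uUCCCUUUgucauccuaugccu

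The 27 mature forms of the 14 hairpins had 27 distinct seeds, so none of them shared one. Within the chromosome 12 cluster the H3K9me2 directions were mixed. The region over Mir541 (chr12:109742401-109742950) had 0 and 1 in the second pair and 99 and 154 in the first in the authors' deposited table. The next region, over Mir369, Mir409 and Mir412 (chr12:109743001-109743700), had 44 and 21 in the second pair and 101 and 171 in the first in the authors' deposited table. The region over Mir300 (chr12:109724101-109724750) had 140 and 191 in the second pair and 23 and 32 in the first in the authors' deposited table. All 3 regions kept the pairs apart, Mir541 and its neighbours higher in the first pair and Mir300 in the second.

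H3K27me3 was higher in the second pair over all 3 regions. The H3K27me3 region shared by Mir541, Mir369, Mir409 and Mir412 had 585 and 772 in the second pair and 417 and 292 in the first in the authors' deposited table, and that over Mir300 had 434 and 259 against 239 and 155. At Mir9-1 (chr3:88215401-88215750), a source of the neural microRNA miR-9, the authors' deposited table gave H3K9me2 of 0 and 34 in the second pair and 77 and 47 in the first. Its H3K27me3 region had 15724 and 14177 in the second pair and 9498 and 8660 in the first in the authors' deposited table, so the marks stood in opposite directions there. At Mir204 (chr19:22750251-22750850), a microRNA of the retinal pigment epithelium, H3K9me2 had 75 and 165 in the second pair and 62 and 45 in the first in the authors' deposited table, and H3K27me3 regions of both directions overlapped it. Mir199a-2, whose products are known in cardiomyocyte hypoxia responses, had 27 and 27 in the second pair and 29 and 92 in the first in the authors' deposited table.

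Across all 78130 regions, 34384 (44.0%) were higher in the second pair and 43746 (56.0%) in the first. The share higher in the second pair was 45.7% in regions with both H3K27me3 and G9a, 44.6% with G9a alone and 43.6% with neither. The median value of a region was 74 and 77 in the second-pair libraries and 86 and 84 in the first-pair libraries, in the authors' deposited table. The median absolute log2 difference was 0.98. Between the replicates of a pair, the median absolute log2 difference was 0.75 in the second pair and 0.68 in the first, close to the difference between the pairs.

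Both values of the higher pair exceeded both of the other in 52925 of the 78130 regions (67.7%), against a background of 67.9% over all H3K9me2 regions on these chromosomes. That share is near the background. A fold of 4 or more was seen in 4681 regions (5.99%), of which 1536 were higher in the second pair and 3145 in the first. Over all H3K9me2 regions on these chromosomes it was seen in 15853 (6.50%), 5234 in the second pair and 10619 in the first. The share and its split are thus near those of the whole table. Values of 0 were found in 1.43% and 0.849% of regions in the second-pair libraries and in 0.411% and 0.794% in the first-pair libraries.

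The regions were short. Their median length was 650 bp (quartiles 450 and 800), and the longest spanned 5450 bp. Regions with both H3K27me3 and G9a had a median of 700 bp and a maximum of 10550 bp, and those with neither a median of 550 bp. Of the regions described here 192 were 2000 bp or longer (0.246%), against 539 of those with both (1.10%). Per kb of length, the mean of the 4 deposited values had a median of 132, against 135 with both, 132 with G9a alone and 128 with neither.

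H3K27me3 covered at least 50% of the length in 78.6% of the regions. The median covered share was 84.2% (quartiles 53.3% and 100%), and 29562 regions (37.8%) were covered whole. A single H3K27me3 region overlapped 70930 of them, 2 regions 7076 and 3 or more 124. In all 38.0 Mb were shared. The nearest G9a region lay at a median gap of 2050 bp (quartiles 800 and 4550), and 30.6% had one within 1000 bp. Regions with neither overlap stood at a median gap of 2850 bp from G9a, so the absence of overlap often means a G9a region nearby rather than none in the neighbourhood.

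The rule turns on 1 bp, on tables laid out in steps of 50 bp. The 2151 regions with the least overlap with H3K27me3, 50 bp, were higher in the second pair in 46.9%. The 3801 regions just outside, at most 50 bp from an H3K27me3 region, were so in 47.8%. Their median absolute log2 differences were 0.99 and 0.98. At the other edge, 2669 regions at most 50 bp from a G9a region were higher in the second pair in 46.0%, and 1401 regions with H3K27me3 and 50 bp of G9a overlap in 45.4%.

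The direction of the H3K9me2 difference and that of the H3K27me3 difference were compared next. In 41708 regions (53.4%) every overlapping H3K27me3 region was higher in the same pair as H3K9me2, in 31430 (40.2%) in the other pair, and in 4992 (6.39%) H3K27me3 regions of both directions overlapped. If the marks' directions were unrelated, their own shares would give a common direction in 48.0%. Of the regions with H3K9me2 higher in the second pair, 42.4% had H3K27me3 higher in the second pair and 50.7% in the first. Of those with H3K9me2 higher in the first pair, 32.0% had H3K27me3 higher in the second pair and 62.0% in the first.

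**Figure D1:**
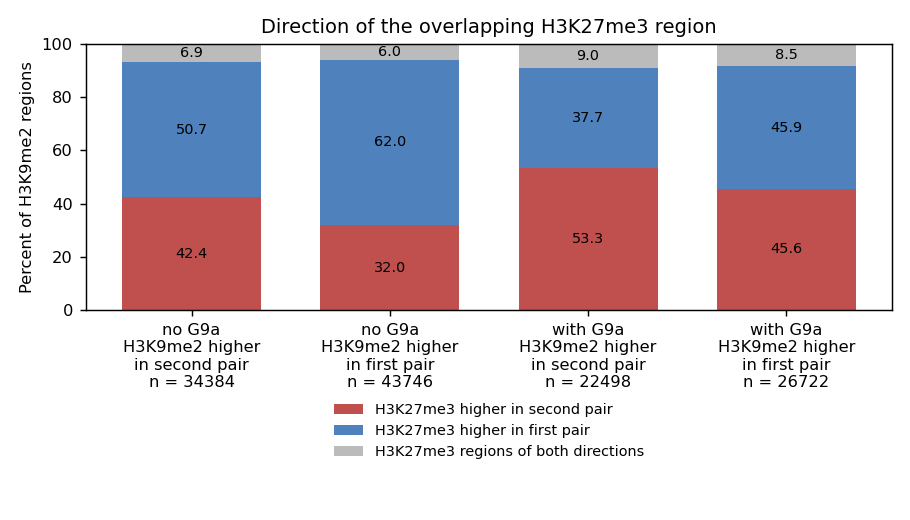
Each bar splits the H3K9me2 regions of 1 kind by the direction of their H3K27me3 regions, as percent of the regions, with the number of regions below the bar. Without G9a, H3K27me3 was higher in the second pair over 42.4% of the regions whose H3K9me2 was higher there and over 32.0% of those whose H3K9me2 was higher in the first pair. With G9a, these shares were 53.3% and 45.6%.

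Where G9a overlapped too, the direction was shared in 49.3% of regions, and the marks' own shares there would give 45.3%. The share thus stood 5.35 percentage points above that value without G9a and 3.92 with it, so much of the contrast between 53.4% and 49.3% lies in the marks' own shares. The excess was above 0 on 19 of 19 chromosomes without G9a and on 18 with it, and it was higher without G9a on 15. The share itself was higher without G9a on each of the 19, although on chromosome 18 the values were 53.04% and 53.00%. It ran from 49.98% on chromosome 17 to 56.3% on chromosome 16 without G9a. On 18 of 19 chromosomes the share was lower among regions with H3K9me2 higher in the second pair than among those higher in the first, and chromosome 11 was the exception with 53.3% and 51.4%. That order goes with H3K27me3 itself, which was higher in the first pair alone at 57.0% of all the regions without G9a. Chromosomes are not replicates of a condition, and all of them come from the same libraries.

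Larger differences shared their direction more often, also relative to the marks' own shares. With a deposited p of 1e-10 or less in both of the authors' deposited tables, 3000 of 4896 regions (61.3%) had both marks in the same direction. Of these the share was 52.5% with H3K9me2 higher in the second pair and 67.8% with H3K9me2 higher in the first. Regions with G9a at the same thresholds shared it in 56.2%, with 69.1% in the second pair and 43.7% in the first, so the order of the directions was the opposite there. At those thresholds H3K27me3 was higher in the second pair at 38.6% of regions without G9a and 58.9% with it. Among regions with an H3K9me2 fold of 4 or more the share was 62.5% without G9a and 49.98% with it. The excess over the marks' own shares was 12.8 points without G9a and 10.4 with it at those p, and 11.3 and 6.30 points at that fold. In the 192 regions of 2000 bp or more it was 41.1%, since 30.7% of them met H3K27me3 regions of both directions. Over the 78130 regions Pearson's r between the log2 differences was 0.14 and Spearman's rho 0.13. This is a description across regions of 8 libraries, in tables that each leave out small differences.

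**Figure D2:**
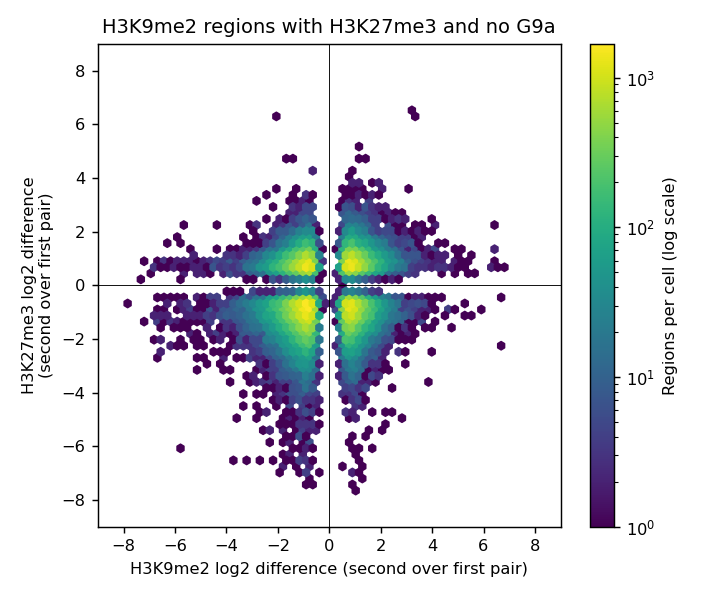
Each cell counts regions (log colour scale) by the H3K9me2 log2 difference on the horizontal axis and the H3K27me3 log2 difference on the vertical axis, both second over first pair with a pseudocount of 1. The regions fall into 4 groups around an empty cross, as small differences were not listed, and the group with both marks higher in the first pair holds the most regions.

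The 80574 H3K27me3 regions that overlap these H3K9me2 regions were mostly higher in the first pair. Of them 39.9% were higher in the second pair, against 51.4% of the H3K27me3 regions that overlap H3K9me2 regions with G9a and 42.8% of all 547402 on these chromosomes. The values of the pairs did not overlap in 71.9%, against a background of 69.2%. Their median length was 900 bp, against 1050 bp at the regions with G9a and 800 bp in all. Median values were 133 and 113 in the second pair and 169 and 150 in the first, in the authors' deposited table.

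The direction of H3K27me3 went with the length of its region. Where the H3K27me3 region with the widest overlap was at most 500 bp long, H3K27me3 was higher in the second pair at 27.3% of the H3K9me2 regions. The share was 29.4% for lengths up to 1000 bp, 35.9% up to 2000 bp and 66.7% up to 5000 bp. Above 5000 bp it was 97.1% of 1967 regions, and in 16 of these both marks were higher in the first pair. With G9a, the 4590 regions under H3K27me3 regions of over 5000 bp had 97.9%. Regions under such broad H3K27me3 made up 2.52% of those without G9a and 9.33% of those with it.

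H3K9me2 did not follow that trend. Under H3K27me3 regions of over 5000 bp it was higher in the second pair at 47.1% of regions, against 44.8% under those of at most 500 bp. The share with a common direction was accordingly 55.7% at lengths of at most 500 bp, 53.1% up to 1000 bp, 54.0% up to 2000 bp, 51.0% up to 5000 bp and 47.0% above. With G9a the shares in the same classes were 51.3%, 49.9%, 49.7%, 47.3% and 47.3%, so the regions without G9a had the higher share in the 4 shorter classes and not in the longest. Relative to the marks' own shares the excess ran from 4.86 to 6.59 points in the 4 shorter classes without G9a and from 2.64 to 4.94 with it. Above 5000 bp it was 0.75 and 0.12 points.

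**Figure D3:**
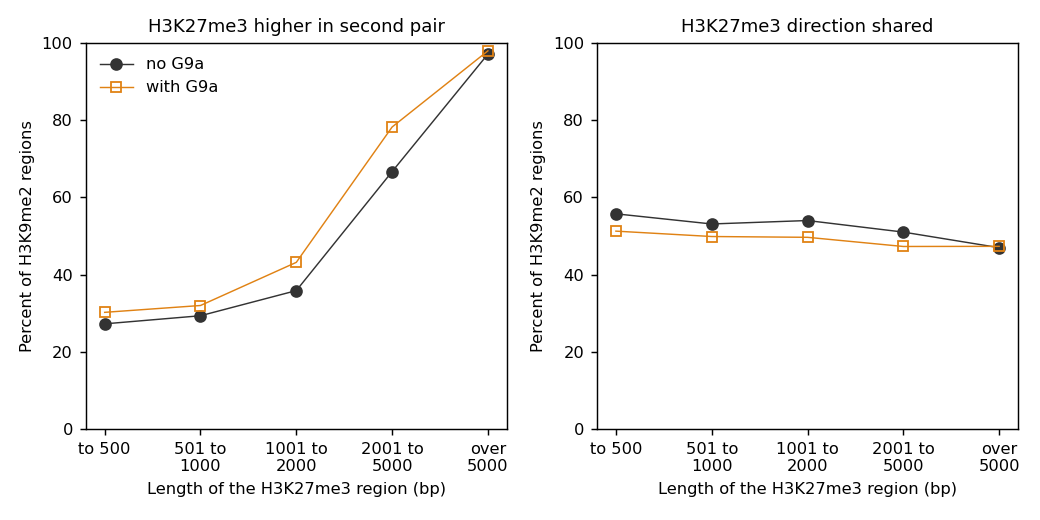
The left panel gives the percent of H3K9me2 regions whose H3K27me3 was higher in the second pair, by the length of the H3K27me3 region, and the right panel the percent with a common direction (filled circles, no G9a; open squares, with G9a). The left share reached 97.1% without G9a above 5000 bp, while the right share stayed between 47.0% and 55.7%.

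Most of the regions lay away from genes. Of the region midpoints, 70.8% were outside protein-coding genes and their 2500 bp surroundings, 25.4% inside gene bodies and 3.88% within 2500 bp of a gene end. The share outside genes was 67.4% with both H3K27me3 and G9a, 67.7% with G9a alone and 63.6% with neither. On 19 of 19 chromosomes the regions described here were less often in or near genes than those with neither, on 18 less often than those with both and on 17 less often than those with G9a alone. Exons, introns and untranslated regions were not told apart, since the gene table gives only starts and ends. At gene ends H3K27me3 was higher in the second pair over 50.3% of the regions, in gene bodies over 41.2% and outside genes over 34.2%.

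The regions were spread over the genome, with a median of 30 in a 1 Mb bin (quartiles 16 and 46) and 5 of 2413 bins without one. The bin with the most held 129, at 81 to 82 Mb on chromosome 18, where the gene table places no protein-coding gene. The bin at 9 to 10 Mb on chromosome 16, which overlaps no protein-coding gene other than Grin2a, a glutamate receptor subunit gene, had 123. Those at 153 to 154 Mb on chromosome 4, with Ajap1, at 138 to 139 Mb on chromosome 7, with Tcerg1l and Jakmip3, and at 71 to 72 Mb on chromosome 11, with Nlrp1a and Nlrp1b, had 120, 114 and 109. The bin at 171 to 172 Mb on chromosome 2 had 108 and no protein-coding gene. In each of these 6 bins more of the regions were higher in the second pair, as with 77 of 129 on chromosome 18.

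A region lay in or within 2500 bp of 5465 of 20665 protein-coding genes on chromosomes 1 to 19, a background of 26.4%. For regions higher in the second pair the background was 15.7% (3244 genes) and for those higher in the first 21.0% (4345 genes). Over all genes there were 21.6 such regions per Mb of gene and surroundings. Long genes hold more regions, so lists are given with both the count of genes and the density. No list was tested, since neighbouring genes share regions and the rule used the same contrast.

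Large neuronal genes carried the most. Csmd1, a complement regulator of the brain, had 129 regions, Cntnap2, a neurexin relative of the axon, 112, and Dlg2, a postsynaptic scaffold gene, 111. Nrxn3, a presynaptic adhesion gene, had 102, Dab1, which relays reelin signals, 100, Lsamp, a neuronal adhesion gene, 100, Dpp6, a potassium channel partner, 98, and Gpc5, a glypican, 91. Their densities reached 107 per Mb at Dpp6 and 88.5 per Mb at Dab1, above the mean of all genes. H3K9me2 regions with neither overlap were many there too, such as 116 at Lsamp and 40 at Dpp6. At Dpp6 63 regions were higher in the second pair and 35 in the first, while at Lsamp 36 were higher in the second and 64 in the first.

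Of 46 synaptic adhesion and guidance genes, 44 had a region, 42 of them one higher in the second pair and 43 one higher in the first. Their density was 42.4 per Mb, and with a median length of 773 kb they are among the longest genes. All H3K9me2 regions together had 127 per Mb there, against 75.4 over all genes. At Lrp1b, a lipoprotein receptor relative (chr2:42631401-42633600), H3K9me2 had 586 and 552 in the second pair and 118 and 240 in the first in the authors' deposited table. H3K27me3 had 137 and 103 in the second pair and 255 and 151 in the first in the authors' deposited table, so the marks stood in opposite directions, each without overlap of the pairs. At Opcml, a neuronal adhesion gene (chr9:27945351-27946350), H3K9me2 had 274 and 243 in the second pair and 51 and 35 in the first in the authors' deposited table, which is a log2 difference of 2.56. Of 36 neurotransmitter receptor genes 30 had a region, at 54.3 per Mb. At the glutamate receptor gene Grm5 (chr7:88013701-88015250) the authors' deposited table gave 419 and 385 in the second pair and 120 and 77 in the first for H3K9me2. H3K27me3 there had 151 and 109 in the second pair and 9 and 15 in the first in the authors' deposited table, which is a log2 difference of 3.33. Both marks were higher in the second pair at Grm5, and both were higher in the first at Grm3, where H3K9me2 had 56 and 20 in the second pair and 305 and 212 in the first in the authors' deposited table.

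Chemosensory receptor genes stand in large clusters and are mostly silent outside sensory neurons. Of 1100 odorant receptor genes 315 had a region, 174 one higher in the second pair and 178 one higher in the first. Their density was 52.6 per Mb, above that of all genes, while the share of genes was 28.6% against the background of 26.4%. The higher density is not particular to these regions. All H3K9me2 regions together had 172 per Mb there, against 75.4 over all genes, and those with neither 70.7 against 30.5. At Olfr705 (chr7:106876001-106877300) the authors' deposited table gave 63 and 43 in the second pair and 248 and 386 in the first for H3K9me2. H3K27me3 there had 59 and 142 in the second pair and 222 and 193 in the first in the authors' deposited table, so both marks were higher in the first pair without overlap. Of 359 vomeronasal and formyl peptide receptor genes 119 had a region, at 41.7 per Mb, against 138 for all H3K9me2 regions there. H3K27me3 was higher in the first pair at 78.3% of the 221 regions without G9a at these genes. That share was 50.9% at all protein-coding genes and 57.0% over all 78130 regions. At Vmn2r109 (chr17:20545501-20546100) H3K9me2 had 12 and 7 in the second pair and 113 and 155 in the first in the authors' deposited table, which is a log2 difference of -3.68. Vmn2r79, with 482 and 395 in the second pair and 112 and 161 in the first in the authors' deposited table, stood the other way.

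Zinc finger genes named Zfp, many of which encode KRAB repressors of transposable elements, had 180 regions, of which 36.1% were higher in the second pair, against 42.3% of the 23095 regions at all protein-coding genes and 44.0% of all 78130. Of 388 genes 84 had a region (21.6%, below the background of 26.4%), 32 one higher in the second pair (8.25%, background 15.7%) and 68 one higher in the first (17.5%, background 21.0%). The region at the ends of Zfp978 and Zfp988 (chr4:147334551-147335350) stood at 0 and 0 in the second pair and at 255 and 191 in the first in the authors' deposited table. Its H3K27me3 region had 1778 and 706 in the second pair and 2447 and 1786 in the first in the authors' deposited table, higher in the first as well. At Zfp991 (chr4:147176101-147177050) H3K9me2 had 36 and 77 in the second pair and 235 and 283 in the first in the authors' deposited table. H3K27me3 there had 29 and 71 in the second pair and 422 and 464 in the first in the authors' deposited table. These genes are near-identical copies in a cluster, so how reads were placed among them is uncertain. The 2 longest regions lay nearby on the same chromosome, outside genes. One, of 5450 bp (chr4:146492451-146497900), had 964 and 1239 in the second pair and 3363 and 2130 in the first in the authors' deposited table. The other, of 3850 bp (chr4:146484551-146488400), had 899 and 956 in the second pair and 2219 and 1590 in the first in the authors' deposited table.

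Cytochrome P450 genes, which encode oxygenases of steroid, fatty acid and drug metabolism, had 184 regions, of which 59.8% were higher in the second pair, against the same 42.3% at all genes. Of 99 genes 66 had a region, 50 one higher in the second pair and 47 one higher in the first, at a density of 34.4 and 23.3 per Mb. Over all genes the densities were 9.08 per Mb for the second pair and 12.5 for the first. At Cyp7b1, an oxysterol hydroxylase gene (chr3:18128501-18129200), H3K9me2 had 234 and 192 in the second pair and 38 and 10 in the first in the authors' deposited table. H3K27me3 at Cyp7b1 had 105 and 210 in the second pair and 315 and 290 in the first in the authors' deposited table, in the opposite direction. At Cyp2c29 (chr19:39304801-39306350) H3K9me2 had 473 and 239 in the second pair and 109 and 65 in the first in the authors' deposited table. Cyp3a13 (chr5:137900151-137900850) went the other way, with 0 and 11 in the second pair and 120 and 215 in the first in the authors' deposited table. Solute carrier genes had a region at 132 of 376, and the region with the smallest p at Slc22a27, a gene of the organic ion transporter family (chr19:7932801-7934600), had 586 and 474 in the second pair and 23 and 70 in the first in the authors' deposited table.

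Other clustered families had a region at 45 of 109 keratin and keratin-associated genes (59.6 per Mb), 30 of 62 serpin genes (36.1), 15 of 71 defensin genes (36.8), 13 of 29 killer lectin-like receptor genes (28.1) and 27 of 67 protocadherin genes (34.8). These are 41.3%, 48.4%, 21.1%, 44.8% and 40.3% of the genes, so defensins stood below the background of 26.4%. The densities are not particular to these regions. All H3K9me2 regions together had 167, 118, 142, 108 and 94.0 per Mb at these lists, against 75.4 over all genes. Of 18 type I interferon genes and 73 ribosomal protein genes none had one. At the keratin-associated gene Krtap24-1 (chr16:88609351-88609800) H3K9me2 had 1 and 0 in the second pair and 64 and 154 in the first in the authors' deposited table. At the hair keratin gene Krt33a (chr11:100015451-100016300) it had 255 and 167 in the second pair and 57 and 15 in the first in the authors' deposited table. The keratin list thus held regions of both directions, 19 genes with one higher in the second pair and 33 with one higher in the first. Of 23 cadherin genes 19 had a region, and at Cdh12 (chr15:21430351-21431050) the authors' deposited table gave 2 and 12 in the second pair and 135 and 213 in the first. Of 42 collagen genes 28 had one, with 248 and 103 in the second pair and 23 and 1 in the first at the basement membrane gene Col4a3 in the authors' deposited table. Potassium channel genes had one at 42 of 92 and testis genes named Spata, Tex or Speer at 28 of 71. The shares were 82.6% for cadherin, 66.7% for collagen, 45.7% for potassium channel and 39.4% for testis genes, against 26.4% of all genes. At Tex24, a testis gene, the region stood at 0 and 0 in the second pair and at 57 and 95 in the first in the authors' deposited table.

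**Figure D4:**
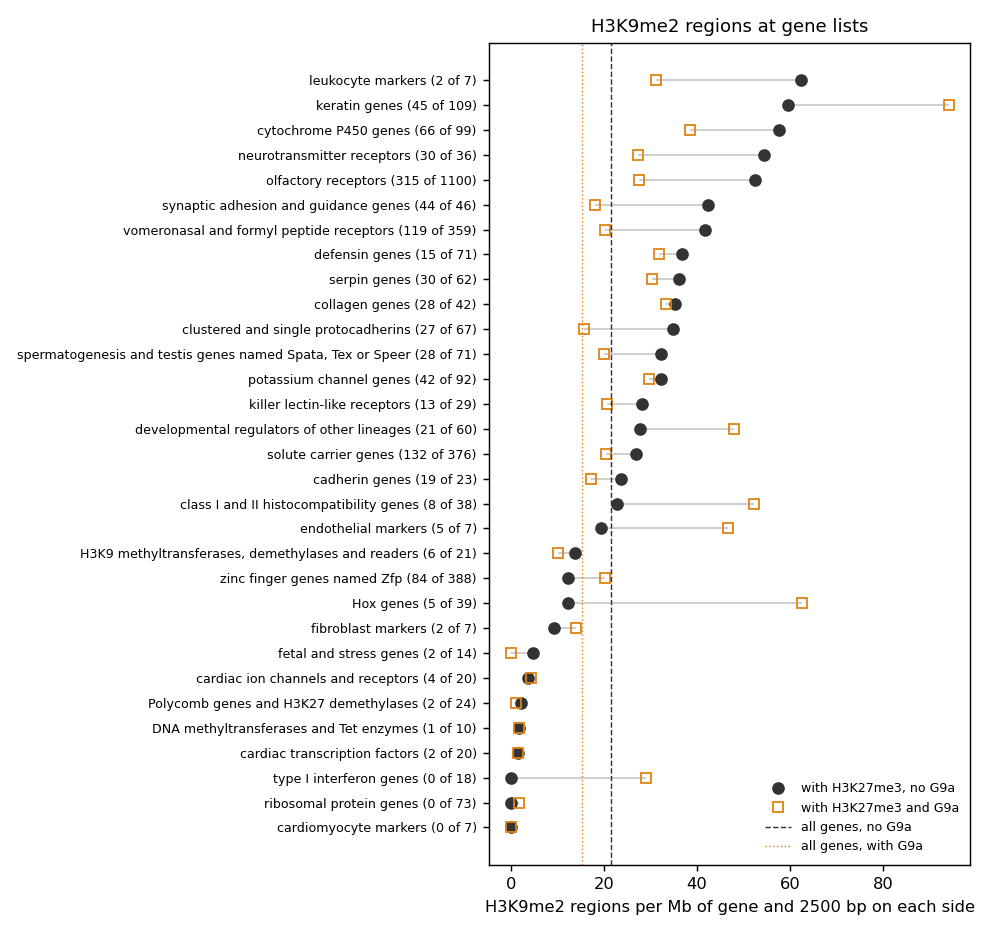
For each list of at least 7 genes, the number of H3K9me2 regions per Mb of gene and 2500 bp on each side is given without G9a (filled circles) and with G9a (open squares), both with H3K27me3, beside the value of all protein-coding genes (lines). The counts after each name are genes with a region without G9a, of the genes measured. Keratin, cytochrome P450, neurotransmitter and odorant receptor genes lie above the 21.6 per Mb of all genes, and cardiac lists below it. For all H3K9me2 regions together, not shown, the keratin to odorant lists had 145 to 172 per Mb, against 75.4 over all genes.

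Developmental regulators, the classic Polycomb targets, held more regions that overlapped a listed G9a region than regions that did not. Of 60 regulators of other lineages 21 had a region without G9a, at 27.7 per Mb, and 27 one with H3K27me3 and G9a, at 48.0 per Mb. Of 39 Hox genes, which pattern the body axis, 5 had one without G9a, at 12.1 per Mb, and 19 one with both, at 62.6 per Mb. H3K27me3 was higher in the second pair at 6 of the 6 regions of Hox genes and at 80.5% of the 41 of developmental regulators. H3K9me2 was higher there in 3 of 6 and in 48.8%. At all protein-coding genes the shares were 42.5% for H3K27me3 and 42.3% for H3K9me2. Over all regions without G9a under H3K27me3 regions of over 5000 bp, such as that at Hoxb2, the H3K27me3 share was 97.1%.

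At Hoxb2 (chr11:96353001-96353550) H3K9me2 had 27 and 20 in the second pair and 98 and 128 in the first in the authors' deposited table. The H3K27me3 region of 12350 bp over it had 11425 and 10621 in the second pair and 7843 and 7613 in the first in the authors' deposited table. The marks stood in opposite directions at Hoxb2, and at the neighbouring Hoxb1 (chr11:96365051-96365750) in the same. Hoxb1 had H3K9me2 of 81 and 299 in the second pair and 68 and 63 in the first in the authors' deposited table. At Pax3, a neural crest regulator (chr1:78104551-78105500), H3K9me2 had 2 and 51 in the second pair and 191 and 263 in the first in the authors' deposited table. At Sim1, a hypothalamic regulator (chr10:50908451-50909300), it had 147 and 186 in the second pair and 70 and 23 in the first in the authors' deposited table. Sim1 lay under an H3K27me3 region of 11300 bp, higher in the second pair as well.

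Genes of the heart muscle held few of these regions per Mb. The densities were 4.64 per Mb for genes of the fetal program and of stress, 3.50 for cardiac ion channels and receptors and 1.35 for cardiac transcription factors, against 21.6 over all genes. The shares of their genes with a region were 14.3%, 20% and 10%, against the background of 26.4%, in lists of 14 to 20 genes. None of 7 cardiomyocyte markers (Myh6, Tnnt2, Actn2, Ryr2, Pln, Myl2, Tnni3) had one, and none had an H3K9me2 region with both H3K27me3 and G9a. The tables list only differing regions of repressive marks, so this neither measures the level of a marker nor checks how pure the cells were. Of 14 genes of the fetal program and of load-induced stress 2 had a region, both higher in the first pair. Hcn4, the pacemaker channel gene (chr9:58858601-58859200), had 15 and 8 in the second pair and 123 and 123 in the first in the authors' deposited table, which is a log2 difference of -3.31. H3K27me3 at Hcn4 had 275 and 185 in the second pair and 138 and 171 in the first in the authors' deposited table, in the opposite direction. At the skeletal actin gene Acta1 the H3K9me2 values of the pairs overlapped.

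Of 20 cardiac ion channel and receptor genes 4 had a region, at 3.50 per Mb. At Kcnd2, a transient outward potassium channel gene (chr6:21545851-21546250), H3K9me2 had 28 and 20 in the second pair and 100 and 53 in the first in the authors' deposited table. H3K27me3 there had 10 and 39 in the second pair and 400 and 235 in the first in the authors' deposited table, so both marks were higher in the first pair. Of 20 cardiac transcription factors 2 had one, at 1.35 per Mb. At Isl1, a factor of heart progenitors (chr13:116302101-116303600), H3K9me2 had 185 and 320 in the second pair and 136 and 155 in the first in the authors' deposited table. It lay within an H3K27me3 region of 9150 bp with 7615 and 6368 in the second pair and 4671 and 4030 in the first in the authors' deposited table.

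Marker genes of other cell types in the heart varied. The shares of genes with a region were 71.4% for endothelial, 28.6% for leukocyte, 28.6% for fibroblast and 33.3% for smooth muscle and pericyte markers, against the background of 26.4%, in lists of 6 or 7 genes. Their densities were 19.4, 62.3, 9.29 and 15.1 per Mb, against 21.6 over all genes. The endothelial share is not particular to these regions, as 85.7% of the same genes had a region with both H3K27me3 and G9a. With G9a alone it was 85.7% and with neither 71.4%. Of 7 endothelial markers 5 had a region, 9 regions being higher in the second pair and 6 in the first. At Vwf, von Willebrand factor (chr6:125617601-125618700), H3K9me2 had 368 and 569 in the second pair and 145 and 21 in the first in the authors' deposited table. The H3K27me3 region over Vwf, 8550 bp long, had 3841 and 3231 in the second pair and 1836 and 1700 in the first in the authors' deposited table. At Cdh5, endothelial cadherin (chr8:104118451-104119800), H3K9me2 had 333 and 308 in the second pair and 165 and 114 in the first in the authors' deposited table. At Vwf and Cdh5 both marks were higher in the second pair. Erg, an endothelial transcription factor gene (chr16:95586851-95587250), stood the other way, with H3K9me2 of 9 and 35 in the second pair and 53 and 118 in the first in the authors' deposited table. H3K27me3 at Erg had 1425 and 1471 in the second pair and 1045 and 912 in the first in the authors' deposited table, so the marks were opposite there. Of 7 leukocyte markers 2 had a region, Ptprc and Adgre1, with 20 regions between them, 10 higher in each pair. At Ptprc, the CD45 gene (chr1:138117651-138118050), H3K9me2 had 85 and 106 in the second pair and 3 and 11 in the first in the authors' deposited table, which is a log2 difference of 3.59. At Adgre1, the F4/80 gene, it had 199 and 175 in the second pair and 95 and 26 in the first in the authors' deposited table. H3K27me3 at Adgre1 had 142 and 226 in the second pair and 242 and 266 in the first in the authors' deposited table. Both leukocyte genes thus had their leading H3K9me2 region higher in the second pair, while their 20 regions were split evenly. Of 7 fibroblast markers 2 had a region, Dcn and Pdgfra, and of 6 smooth muscle and pericyte markers 2, Rgs5 and Myh11. At Dcn, the decorin gene, H3K9me2 had 18 and 42 in the second pair and 130 and 100 in the first in the authors' deposited table. At the pericyte gene Rgs5 it had 51 and 69 in the second pair and 152 and 114 in the first in the authors' deposited table. At Dcn and Rgs5 H3K9me2 was thus higher in the first pair with the pairs apart, and H3K27me3 was higher in the second. At Pdgfra and Myh11 the H3K9me2 values of the pairs overlapped. The part of these cell types in any result was not tested.

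Among the enzymes of the marks, 6 of 21 H3K9 methyltransferase, demethylase and reader genes had a region (28.6%, near the background of 26.4%), 12 of their 30 regions being higher in the second pair and 18 in the first. Prdm16, a zinc finger protein of brown fat and of the compact myocardium (chr4:154313351-154315300), had 929 and 747 in the second pair and 178 and 189 in the first in the authors' deposited table. H3K27me3 at Prdm16 had 259 and 287 in the second pair and 54 and 99 in the first in the authors' deposited table, in the same direction. At its relative Mecom (chr3:30292251-30294100) H3K9me2 had 383 and 435 in the second pair and 178 and 124 in the first in the authors' deposited table. H3K27me3 at Mecom had 185 and 28 in the second pair and 367 and 370 in the first in the authors' deposited table, in the opposite direction. Prdm2, a further relative (chr4:143113951-143114400), stood the other way, with H3K9me2 of 5 and 40 in the second pair and 83 and 102 in the first in the authors' deposited table and H3K27me3 higher in the second. Of 24 Polycomb and H3K27 demethylase genes 2 had a region, Ring1 and Mtf2, both higher in the first pair for H3K9me2 and H3K27me3. At Ring1, which encodes an H2A ubiquitin ligase of Polycomb repressive complex 1 (chr17:34019451-34019800), H3K9me2 had 1 and 12 in the second pair and 85 and 59 in the first in the authors' deposited table. Of 10 DNA methyltransferase and Tet genes 1 had one, Dnmt3b (chr2:153661851-153662200), with 0 and 38 in the second pair and 76 and 67 in the first in the authors' deposited table.

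The regions at genes that were higher in the second pair and ranked among those with the smallest p included Dpp9 and Grk5. Dpp9, a dipeptidyl peptidase gene (chr17:56199551-56200700), had 1022 and 1671 in the second pair and 374 and 256 in the first in the authors' deposited table. Grk5, a kinase of G protein-coupled receptors with a known part in cardiac hypertrophy (chr19:60924201-60925350), had 1280 and 1512 in the second pair and 599 and 653 in the first in the authors' deposited table. H3K27me3 at Grk5 had 602 and 655 in the second pair and 382 and 326 in the first in the authors' deposited table. At Dpp9 and Grk5 both marks were higher in the second pair, as at 5 of the 8 second-pair regions ranked by p, while at Slc22a27 and Prl3c1 H3K27me3 was higher in the first.

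Among the regions at 1 to 3 genes that were higher in the first pair, that at the ends of Doc2a and Ino80e, a calcium sensor of vesicle release and a chromatin remodeller subunit (chr7:126851801-126853150), had the smallest p. It had 0 and 48 in the second pair and 221 and 429 in the first in the authors' deposited table. Its H3K27me3 region had 3566 and 3097 in the second pair and 2337 and 1766 in the first in the authors' deposited table, in the opposite direction. At Sycp1, a meiotic synapsis gene (chr3:102860901-102861850), H3K9me2 had 35 and 1 in the second pair and 273 and 233 in the first in the authors' deposited table. At Glis1, a zinc finger gene (chr4:107462351-107463100), it had 9 and 1 in the second pair and 182 and 184 in the first in the authors' deposited table. At Spata16, a spermatogenesis gene (chr3:26899501-26900200), it had 1 and 4 in the second pair and 203 and 173 in the first in the authors' deposited table. Of the 8 first-pair regions ranked by p, 3 had H3K27me3 higher in the second pair, 3 in the first and 2 in both, and none had overlapping H3K9me2 pairs.

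**Figure D5:**
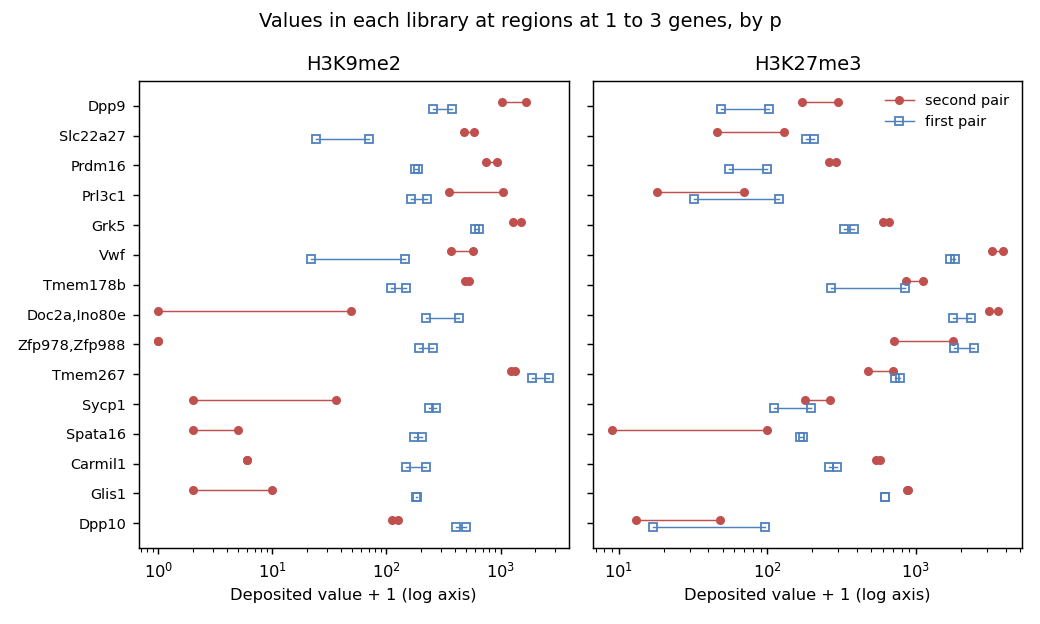
The deposited values plus 1 are given for each library on a log axis at regions at 1 to 3 genes, ranked by the smallest p among such regions, up to 8 per direction (left, H3K9me2; right, the H3K27me3 region with the widest overlap; filled circles, second pair; open squares, first pair). The H3K9me2 pairs are apart in every row shown, while the H3K27me3 points of the pairs cross in some, such as Prl3c1 with 17 and 69 in the second pair and 118 and 31 in the first.

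Regions at 1 to 3 genes were also ranked by log2 difference. Only those with a mean of at least 100 over the 4 libraries and both values of the lower pair above 0 were taken. The largest differences were at Cep295, a centriole gene, in the second pair and at 1700028P14Rik in the first. Regions outside these limits reached larger ones, such as Spata16 with a lower mean (-5.75) and Zfp978 and Zfp988 with 0 and 0 (-7.81). At Cep295 (chr9:15358601-15359400) the authors' deposited table gave 278 and 150 in the second pair and 11 and 12 in the first, a log2 difference of 4.10. At 1700028P14Rik (chr19:23559801-23560600) it gave 4 and 18 in the second pair and 145 and 255 in the first, a log2 difference of -4.07 from the authors' deposited table. H3K27me3 was higher in the first pair at both, so Cep295 had opposite directions. At Nek11, a cell cycle kinase gene (chr9:105167951-105168850), H3K9me2 had 37 and 9 in the second pair and 177 and 231 in the first in the authors' deposited table, against an H3K27me3 region higher in the second.

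The regions were also grouped by the share of their length under H3K27me3. H3K9me2 was higher in the second pair in 47.4% of the 5770 regions with less than 25% covered, in 46.8% from 25%, 45.3% from 50%, 43.0% from 75% and 42.2% of the 29562 covered whole. Both marks had the same direction in 44.2%, 50.3%, 53.8%, 53.2% and 56.2% of these classes. The median absolute log2 difference stayed between 0.96 and 1.00, and the pairs were apart in 66.8% to 69.4%. The regions covered whole were also the shortest, with a median of 550 bp against 700 bp in the least covered. Asic2, an acid-sensing channel gene (chr11:81487801-81490500), was covered whole over 2700 bp, with 777 and 435 in the second pair and 315 and 300 in the first in the authors' deposited table. The region at the end of the Ugt1a genes, which encode glucuronosyltransferases (chr1:88217801-88220250), was covered whole and had 1333 and 1445 in the second pair and 2028 and 1641 in the first in the authors' deposited table. At Lrp2, the megalin gene, with 3.13% of its region covered (chr2:69476601-69478200), the authors' deposited table gave 241 and 61 in the second pair and 255 and 352 in the first. At Scn7a, a sodium channel relative with 3.23% covered, it gave 49 and 135 in the second pair and 215 and 415 in the first in the authors' deposited table. In all 4 the H3K9me2 pairs were apart, whether H3K27me3 covered the region or touched it.

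A fit of limma to log2(value + 1) over all 245088 H3K9me2 regions gave a description of the spread between libraries. Since every region was listed for its difference in these same values, the fit is no independent test of any of them. At a Benjamini-Hochberg adjusted p of 0.05 it called 1 of the 78130 regions as higher in the second pair and 0 as higher in the first, against backgrounds of 0.000408% and 0.0% over the table. At an unadjusted p under 0.05 it gave 4229 of the 78130 for the second pair and 5125 for the first. Over all 245088 H3K9me2 regions it gave 13529 and 15411, which are similar shares. Scaled to library sums the counts were 5134 and 4295 among the 78130, against 16339 and 13070 over all regions. Centred on library medians they were 6796 and 3235, against 21489 and 9759. Which direction had more thus depended on the scaling, here as over all regions. Among the 78130 it also depended on single libraries. Without 1 or the other second-pair library the counts were 2165 and 1931 for the second pair and 8006 and 10034 for the first, and without 1 or the other first-pair library 6466 and 5380 for the second pair and 1383 and 1502 for the first. The called region lay at no gene (chr17:4625651-4627250) and had 5655 and 10041 in the second pair and 757 and 670 in the first in the authors' deposited table. H3K27me3 there had 709 and 1501 in the second pair and 221 and 295 in the first in the authors' deposited table, in the same direction. Without any 1 of the 4 libraries limma called 0 of the regions.

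That region is 1 of 4 whose deposited p is 0, a placeholder in the authors' deposited table. Of the 108 regions named by rule, limma called 0 at an adjusted p of 0.05 and 84 at an unadjusted p under 0.05. An exact permutation test of 1 region, 2 libraries against 2, has 0.333 as its smallest two-sided p. The separation of the pairs at the named regions therefore rests on the deposited p by which they were listed.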

How the data were processed

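Per the labels' protocols, the NuGEN Ovation Ultralow V2 kit was used for ChIP-seq libraries of G9a, H3K9me2 and H3K27me3. Per the submitters' processing notes, BWA 0.7.10-r789 and SAMtools 1.1 were used with build mm10, that is GRCm38. The region caller, its scaling and any input correction were not given in the sources used here. For every antibody the authors deposited a table in which each line gives a region, 4 whole numbers and a −log10 p. These deposited values were not treated as raw counts, so no count model was used. The sign column matched the pair with the higher mean in every line. The largest deposited p was 0.00999.

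Values summed over the 78130 regions to 7150658 and 7430015 in the second pair and to 7796381 and 7611536 in the first. These sums cover listed regions only, and sequencing depth is unknown. Replicates are biological per the series' design. The p-values of the limma fit measure only the spread between these libraries, and what the deposited p measures is not known. The 2 mitochondrial regions of the H3K9me2 table stayed out.

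Overlaps of 1 bp or more were counted between tables, and where several H3K27me3 regions overlapped, values are those of the widest overlap. Genes were the 20665 protein-coding genes of GRCm38.p6 on chromosomes 1 to 19, widened by 2500 bp, without strand. Promoters and microRNAs came from RefSeq. The limma 3.58.1 fit (R 4.3.3, trend) ran on log2(value + 1) over the whole table with Benjamini-Hochberg adjustment and was tested on simulated data. Python 3.11.15 was used elsewhere. The same fit over the H3K27me3 table called 0 regions, with 52590 and 51094 at an unadjusted p under 0.05.

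Named regions are, among those at 1 to 3 genes, the 8 per direction with the smallest deposited p. The 4 per direction with the largest log2 difference (mean of at least 100, both values of the lower pair above 0) were also named. So were the 5 longest, the genes and bins with the most regions, up to 3 genes of each list, and the 4 with the widest and narrowest coverage. Not all are printed, and one item is not reported here. The regions and gene lists were chosen with earlier results of these data known, and the definitions of 3 lists (neurotransmitter receptors, interferons, ribosomal proteins) were corrected after their counts were seen.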

Additional observations from a re-analysis of the deposited data

How the results depend on the processing

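The share of regions with both marks in the same direction (53.4%) was 54.8% with at least 50% of the region covered, 55.4% with a p of 0.001 or less in both tables, 54.3% without regions that have G9a within 1000 bp, 50.6% at lengths of at least 1000 bp, and 52.7% to 53.5% without single libraries. With pairs apart in both tables, an alternative chosen after seeing the data, it was 54.8%. The share outside genes (70.8%) was 70.4% at that coverage, 71.7% without G9a within 1000 bp, 74.0% at 1000 bp or more, and 72.2% and 68.5% with windows of 1000 and 5000 bp.

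A p of 0.001 or less left 51682 regions, 22633 of them higher in the second pair. A length of 1000 bp or more left 10347 regions, of which 5156 (49.8%) were higher in the second pair and 7790 had pairs apart, at 1435 genes. Without single libraries, 33244 to 35538 regions were higher in the second pair, and 96.1% to 96.7% kept their direction. The 67.7% with pairs apart could not change direction in this way. The limma count for the second pair was 4 with a pseudocount of 10 and 0 to 0 without single libraries. With 1 library left in a pair, that library was taken to vary like the others. Of 192 gene list counts under the alternatives, 142 were within 1.5 times the value given and 50 were not. Of 132 values of named regions, 111 moved by less than the replicate spread and 21 by more, and none changed sign. The pairs were apart at all of these regions, so leaving out a library could not change a sign.

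The median log2 difference over the H3K9me2 table was -0.65 as deposited, -0.59 scaled to library sums and -0.48 centred on library medians. Directions relative to a common level are therefore uncertain by that shift. The count higher in the second pair stayed at 34384 and 34385. Small differences were not listed (lower quartile of the absolute log2 difference 0.77), so a shift of this size could hardly move that count. No paired analysis was possible because the columns carry no replicate numbers. The unknown depth and scaling limit all levels given here.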
